A study of Homo sapiens with 9 samples.

Results

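The keratin genes were followed after depletion of a nuclear lamin in DLD1, an established line of human colorectal cancer with a near-diploid karyotype. Members were all probes on the array whose gene name is KRT followed by a number and at most 1 letter, which leaves out the keratin-associated proteins. The rule gave 81 probes for 55 gene names, of 50238 probes for 31033 names in all. Of these, 46 probes belonged to 29 type I keratins and 35 to 26 type II keratins, counting KRT6L and KRT222P of the files as KRT79 and KRT222. Single-color arrays were hybridized with RNA of 3 Control cultures, which were left untreated, 3 Lamin A/C Kd cultures and 3 Lamin B2 Kd cultures. Both Kd groups had received 100 nM siRNA for 48 h, against LMNA or LMNB2. No group was transfected with a control siRNA, so the effect of transfection and that of lamin loss cannot be told apart in either comparison with Control.

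Keratins are the intermediate filament proteins of epithelial cells. A filament forms from obligate pairs of an acidic type I and a basic or neutral type II keratin, and the pair depends on the epithelium. Simple epithelia such as the colon are built on KRT8 with KRT18, KRT19 and KRT20, stratified epithelia use pairs such as KRT5 with KRT14 or KRT1 with KRT10, and hair keratins serve the hair shaft and follicle. The filaments attach to desmosomes through plakin and plakophilin proteins and reach the nucleus through linker complexes that contact the lamins, which are themselves intermediate filament proteins.

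The probes of KRT80, KRT8 and KRT18 carry the results below, and their letters are given as the array files list them, 5′ to 3′ in lower case. Every probe is 60 bases long. For KRT80 probe a and KRT8 probe a the first 30 bases are shown. Capitals mark the longest run that the probe shares with a probe of another gene name on the same array.
KRT80 probe a: ccaagggagcaaatcctcagtggggataca
KRT80 probe b: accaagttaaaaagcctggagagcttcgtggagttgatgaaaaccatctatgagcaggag
KRT8 probe a: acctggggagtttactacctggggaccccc
KRT8 probe b: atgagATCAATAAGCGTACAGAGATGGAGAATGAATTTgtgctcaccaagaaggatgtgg
KRT18 probe a: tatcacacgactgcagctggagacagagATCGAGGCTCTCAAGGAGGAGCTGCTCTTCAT
KRT18 probe b: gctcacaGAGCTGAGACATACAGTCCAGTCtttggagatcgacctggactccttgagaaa
KRT18 probe c: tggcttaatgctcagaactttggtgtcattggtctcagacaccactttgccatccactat
KRT18 probe d: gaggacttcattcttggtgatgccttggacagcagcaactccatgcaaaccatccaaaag
Neither KRT80 probe shared 20 or more bases with any other probe on the array. Both carry the accession of the same KRT80 mRNA, and 33.3% of bases were G or C in probe a against 45% in probe b. KRT8 probe b shared 33 bases with the probe of an unnamed locus, LOC222103. KRT18 probe a shared 32 bases with a probe of LOC652370, and KRT18 probe b shared 23 with a probe of the pseudogene KRT18P34. KRT18 probes a, b and d list the KRT18 mRNA, whereas probe c lists a different accession. Of the 81 keratin probes, 6 shared 20 or more bases with a probe of another gene name. In the GRCh38.p14 gene table, KRT80 lies on chromosome 12 beside KRT7, and KRT8 and KRT18 lie next to each other on the same chromosome. The files mark the position of every keratin probe as unmapped, so no coordinates are given.

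The arrays were similar in median intensity, and the depleted lamins fell as labelled. Array medians of intensity lay between 63.0 and 82.6, and 65.6 to 74.1% of spots were well above background, the software's mark of a spot brighter than its local background. The share was highest in Lamin B2 Kd replicates 2 and 3, at 74.1 and 72.8%. They had 51 and 47 keratin probes above background, against 38 to 44 on the other arrays. In Lamin A/C Kd the log2 differences of LMNA from Control were -3.80 and -3.83 at its 2 probes, and LMNB2 was lower by 2.32 in Lamin B2 Kd. Lamin B2 Kd replicate 3 stood apart. It was on slide 2 and the other 8 arrays on slide 1, so its slide and its culture cannot be told apart. It had the lowest or highest value of the 9 arrays at 25 of the 40 keratin probes that could be tested (62.5%) and at 61.7% of all such probes. Keratin calls in Lamin B2 Kd are given with and without it, as are some of the differences that it moved. All 9 epithelial markers, which are 5 keratins with CDH1, VIL1, CDX2 and EPCAM (TACSTD1 in the files), exceeded background on every array. Of these, VIL1, a protein of intestinal microvilli, was lower in Lamin B2 Kd by 1.06 at 1 of its 2 probes (limma adjusted p = 0.034), and under 2-fold without Lamin B2 Kd replicate 3, at -0.87, without Control replicate 3, at -0.93, and with the 75th percentile shift, at -0.86. Of the markers of other cell types, VIM of 7 fibroblast genes, PECAM1 and VWF of 4 endothelial genes and the immune genes CD3E, CD14 and CD68 were also above background on every array, while PTPRC was above it on at most 2. LUM, a fibroblast matrix gene, and KRT1 were above it on none. The summed signal of the fibroblast markers, in multiples of the array median, was 1.67 to 2.03 in Control, 2.22 to 2.89 in Lamin A/C Kd and 1.51 to 2.46 in Lamin B2 Kd, with PDGFRB higher in Lamin A/C Kd by 1.52 (limma adjusted p = 0.011), or by 0.65 with another background correction (normexp). The summed endothelial markers were at 2.12 to 2.30, 2.16 to 2.90 and 1.64 to 2.80 in the same order. The epidermal keratinocyte list, of which KRT10 and KRT14 were above background on every array, summed to 344 to 374, 231 to 265 and 255 to 361. This sum takes the brightest probe of each gene before logs. On the log2 scale KRT10 probe c read 7.84 to 8.54 and KRT14 at most 1.32. The sum is thus nearly that of KRT10 alone, a member followed here, and it repeats the KRT10 values below. The part of these markers in the results below was not tested. In bulk RNA, fewer cells that express a keratin and less RNA per cell cannot be told apart.

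DLD1 cells expressed the keratins of simple epithelia with a minority of the others. Of the 81 keratin probes, 34 were well above background on all 9 arrays (42.0%) and 23 on none (28.4%), against 60.7% and 18.1% of all 50238 probes. The simple epithelial class was the most complete, with 8 of its 10 probes above background on all 9 arrays and none at background throughout. These were probes of KRT8, KRT18, KRT19 and KRT20. KRT7, a simple keratin that colon cells usually lack, was above background on 1 Control and 1 Lamin B2 Kd array. In the stratified and epidermal class, 13 of 34 probes passed on all 9 arrays, among them KRT10, KRT14, KRT15 and KRT80. KRT1 did not pass on any array, and KRT5, the partner of KRT14, passed on 1. In the hair class 13 of 36 probes passed on all 9 arrays, and 13 on none.

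**Figure D1:**
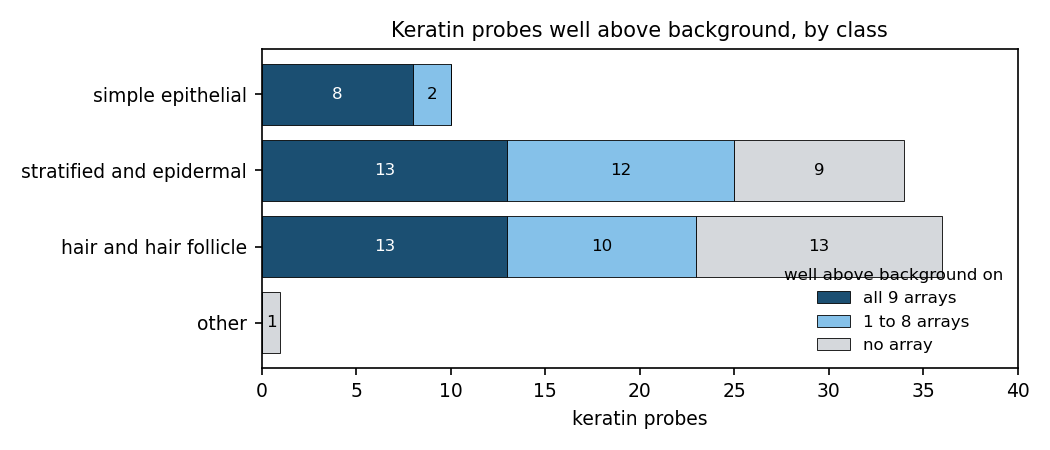
Number of keratin probes (x axis) in each keratin class (y axis), split by whether the probe was well above background on all 9 arrays, on 1 to 8, or on none. In the simple epithelial class 8 of 10 probes were above background on every array and 0 on none.

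For a test in a comparison, a probe had to pass the background mark on the 3 arrays of either group or both, which 40 keratin probes of 28 gene names met in each comparison with Control. The 27 gene names without a tested probe included KRT1, KRT2, KRT5, KRT6A, KRT6B, KRT6C, KRT7, KRT12 and KRT17. The rest of them were KRT24, KRT77 and KRT222P and the hair and follicle keratins KRT26, KRT27, KRT28, KRT33B, KRT35, KRT36, KRT37, KRT39, KRT40, KRT72, KRT73, KRT74, KRT75, KRT82 and KRT83. Values are log2 signals relative to the median of the array, so that 1 unit is a 2-fold difference. A probe was called at a difference of at least 2-fold with an unadjusted p under 0.05 in limma's test, and adjusted p-values are those of Benjamini and Hochberg over all probes tested.

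KRT80 was the only keratin gene called, and its 2 probes changed in opposite directions after Lamin A/C depletion. KRT80 is a type II keratin reported at cell margins and desmosomes of many epithelia. In Lamin A/C Kd against Control, 2 of 40 keratin probes were called (5%), both of KRT80, against 767 of 33127 probes in all, or 2.32%. With the adjusted p under 0.05 both were still called, against 1.85% of all probes.

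KRT80 probe a read 5.09, 4.95 and 5.06 on the Control arrays, 3.871, 3.877 and 4.004 in Lamin A/C Kd and 5.15, 5.07 and 4.76 in Lamin B2 Kd. All 3 Lamin A/C Kd arrays lay below all other arrays, and the Lamin B2 Kd arrays overlapped Control. The means were 5.04 ± 0.07, 3.92 ± 0.08 and 4.99 ± 0.21 (SD, n = 3). The probe was 2.17-fold lower in Lamin A/C Kd than in Control, a log2 difference of -1.12 (SE 0.13, limma adjusted p = 0.0022).

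KRT80 probe b read 1.79, 1.98 and 1.23 in Control, 3.19, 3.11 and 3.06 in Lamin A/C Kd and 3.03, 2.55 and 2.84 in Lamin B2 Kd. Here every array of both knockdowns lay above every Control array, and the Lamin A/C Kd arrays lay above the Lamin B2 Kd arrays. The means were 1.67 ± 0.39, 3.12 ± 0.06 and 2.81 ± 0.24 (SD, n = 3). Probe b was 2.73-fold higher in Lamin A/C Kd than in Control, a log2 difference of 1.45 (SE 0.20, limma adjusted p = 0.0046).

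In Lamin B2 Kd against Control 1 of 40 keratin probes was called (2.5%), against 664 of 33528 in all, or 1.98%. It was KRT80 probe b, which was 2.20-fold higher (log2 difference 1.14, SE 0.20, limma adjusted p = 0.023), and with the adjusted p it was called where 0.951% of all probes were. Probe a differed from Control by -0.04 (95% confidence interval -0.34 to 0.25). Without Lamin B2 Kd replicate 3 the differences were 1.12 (limma adjusted p = 0.039) at probe b and 0.08 at probe a. The call of probe b in Lamin B2 Kd rested on Control replicate 3, the lowest array, without which the difference was 0.92, under 2-fold. It was also under 2-fold, at 0.95, after normexp background correction.

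Between the knockdowns, 1 of 38 keratin probes was called (2.63%), against 1350 of 33130 in all, or 4.07%. KRT80 probe a was 2.11-fold lower in Lamin A/C Kd than in Lamin B2 Kd (log2 difference -1.08, SE 0.13, limma adjusted p = 0.0013), and it stayed called with the adjusted p, as did 3.45% of all probes. Probe b differed between the knockdowns by 0.31 (95% confidence interval -0.14 to 0.76, limma adjusted p = 0.34). The fall at probe a thus differed between the knockdowns, whereas no difference between them was shown for the rise at probe b. Without Lamin B2 Kd replicate 3 the difference at probe a was -1.19, and without replicate 1 it was -0.9973, just under 2-fold.

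Opposed calls at probes of 1 gene were rare on the array. Of 7352 gene names with several probes tested in Lamin A/C Kd against Control, KRT80 was the 1 name with a called probe in each direction. In Lamin B2 Kd against Control there was also 1 such name of 7466, KLK15. In the table of normalized signals that the authors deposited, both KRT80 probes share 1 row with a single value, which was lower by 0.62 in Lamin A/C Kd and was not called.

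**Figure D2:**
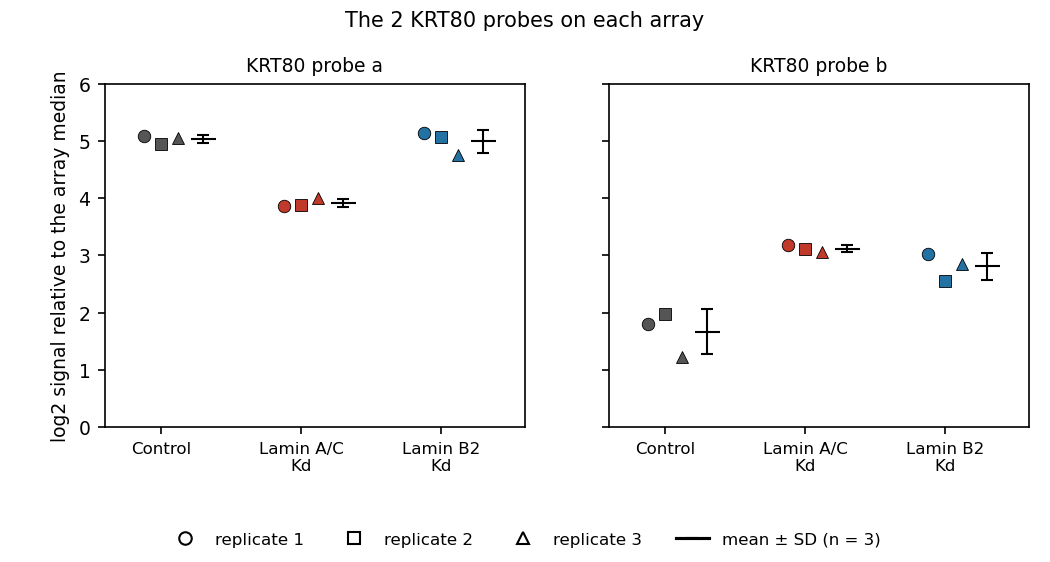
Log2 signal relative to the array median (y axis) at the 2 KRT80 probes on each of the 9 arrays, by group (x axis), with the mean ± SD of 3 arrays beside the points. Lamin A/C Kd lies at 3.871 to 4.004 for probe a, below all other arrays, and at 3.06 to 3.19 for probe b, above all Control arrays.

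The main keratins of the simple epithelium were not called in either knockdown. KRT8 probe a, for the type II partner of the simple epithelial pair, read 10.45, 10.59 and 10.66 in Control, 10.42, 10.55 and 10.40 in Lamin A/C Kd and 10.90, 10.84 and 10.42 in Lamin B2 Kd. The groups overlapped, and the log2 differences from Control were -0.11 (95% confidence interval -0.44 to 0.22) and 0.15 (-0.18 to 0.48). Without Lamin B2 Kd replicate 3, which was at the level of Lamin A/C Kd, the second was 0.30 (limma adjusted p = 0.15), and Lamin A/C Kd was then lower than Lamin B2 Kd by 0.41 (limma adjusted p = 0.027), less than 2-fold.

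KRT8 probe b was less certain. It read 2.83, 4.78 and 5.03 in Control, 4.44, 4.75 and 4.42 in Lamin A/C Kd and 5.003, 5.29 and 5.34 in Lamin B2 Kd. Control replicate 1 lay far below all 8 other arrays. The difference of Lamin B2 Kd from Control was 0.996 (SE 0.48, limma adjusted p = 0.24), and 0.30 without Control replicate 1. The difference of Lamin A/C Kd was 0.32 with that array and -0.37 without it.

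KRT18, the type I partner, had 3 probes for its mRNA, and they differed little between groups. KRT18 probe a read 11.39, 11.39 and 11.49 in Control, 11.29, 11.42 and 11.36 in Lamin A/C Kd and 11.63, 11.47 and 11.20 in Lamin B2 Kd. Probe b read 10.78, 10.81 and 10.89 in Control, 10.66, 10.87 and 10.77 in Lamin A/C Kd and 10.96, 10.92 and 10.53 in Lamin B2 Kd. Probe d read 11.62, 11.61 and 11.72 in Control, 11.79, 11.71 and 11.81 in Lamin A/C Kd and 11.96, 11.67 and 11.63 in Lamin B2 Kd. At these 3 probes the differences of Lamin A/C Kd from Control were -0.07, -0.06 and 0.12, and those of Lamin B2 Kd were 0.01, -0.02 and 0.10. The lowest bound of their 95% confidence intervals was -0.37 and the highest 0.40, so a 2-fold change lay outside every one of them.

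Whether KRT18 probe c, which lists another accession, reads the strand of the KRT18 mRNA was not tested. It read -0.91, -0.58 and -1.13 in Control, -0.82, -0.65 and -0.81 in Lamin A/C Kd and -0.90, -1.03 and -0.10 in Lamin B2 Kd. It was above background on all 9 arrays, the groups overlapped, and Lamin B2 Kd replicate 3 was the highest.

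KRT19, a type I keratin of simple and ductal epithelia, lay between 10.26 and 11.07 on all arrays, and Lamin A/C Kd differed from Control by 0.10, Lamin B2 Kd by -0.07. The lowest value was that of Lamin B2 Kd replicate 3. KRT20, a marker of differentiated intestinal cells, lay between -1.84 and -0.38. Against Control it differed by -0.12 after Lamin A/C depletion and by 0.55 after Lamin B2 depletion, and the knockdowns differed by -0.67 (limma adjusted p = 0.14). Without Lamin B2 Kd replicate 3 the last was -0.43, and Lamin B2 Kd differed from Control by 0.31. KRT23, which was above background on all Control arrays and on 1 Lamin A/C Kd array, differed by -0.57 in Lamin A/C Kd (limma adjusted p = 0.30).

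Among the keratins of stratified epithelia, KRT10 was lower in Lamin A/C Kd at all 3 of its probes, by less than 2-fold. KRT10 is the type I keratin of the upper epidermis and pairs with KRT1, which was not above background here. Probe a read 7.76, 7.68 and 7.81 in Control, 7.13, 7.35 and 7.29 in Lamin A/C Kd and 7.59, 7.82 and 7.37 in Lamin B2 Kd. The other 2 probes were each printed in 11 spots of every array. Probe b lay between 7.84 and 7.98 in Control and between 7.37 and 7.48 in Lamin A/C Kd, and probe c between 8.42 and 8.54 and between 7.84 and 8.04. At each of the 3 probes every Lamin A/C Kd array lay below every Control array. The differences were -0.50, -0.48 and -0.49, with limma adjusted p = 0.057, 0.095 and 0.069, so none passed. Probes a and c share 35 bases, and probe b shares no run of 20 or more with either.

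The repeated spots show how precise a KRT10 reading was. Within an array the SD over the spots had a median of 0.04 at probe b and 0.05 at probe c, and the SD over the 3 Control arrays was 0.07 at both. Lamin B2 Kd replicate 2 was at the level of Control, and replicate 3 near that of Lamin A/C Kd. Replicate 1 read 7.59, 7.85 and 8.31 at probes a, b and c. It lay below every Control array at probes a and c and within the Control range at probe b. Lamin B2 Kd differed from Control by -0.16 to -0.20 over the 3 probes, and by -0.01 to -0.06 without replicate 3. Lamin A/C Kd was then lower than Lamin B2 Kd by 0.45, 0.47 and 0.43 (limma adjusted p = 0.030, 0.011 and 0.029), under the 2-fold criterion. Probes b and c of KRT9 and KRT12 are also printed in 11 spots, and in each of these 4 probes at most 2 of 99 spots were above background.

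**Figure D3:**
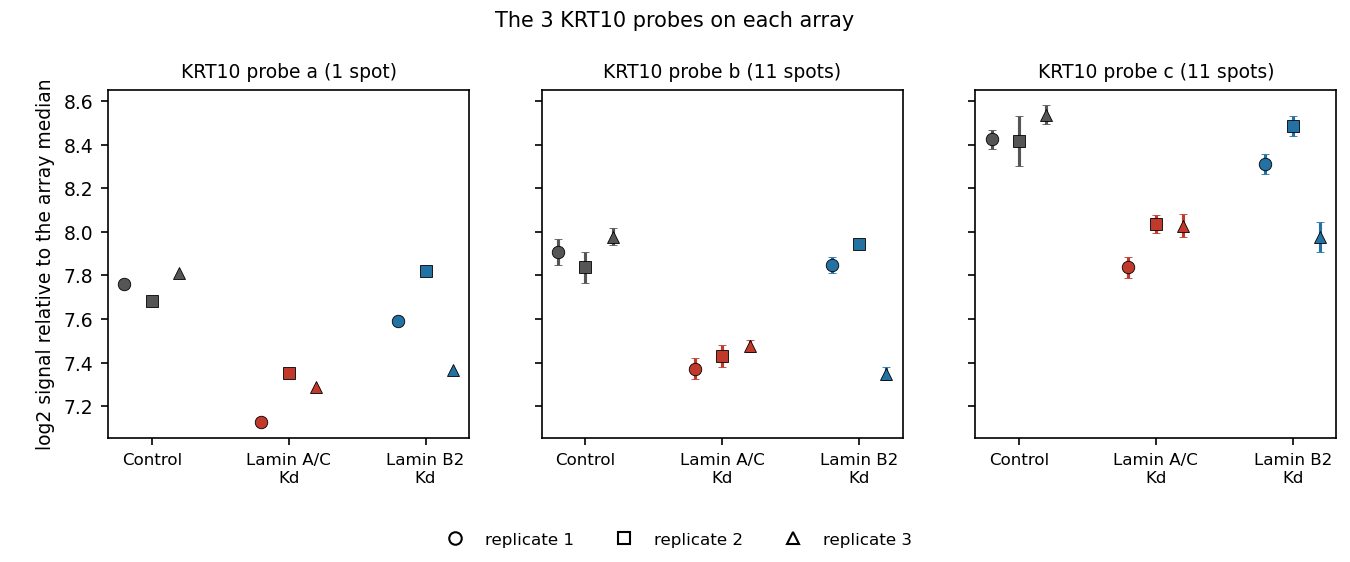
Log2 signal relative to the array median (y axis) at the 3 KRT10 probes on each array, by group (x axis). Error bars are the SD over the repeated spots of probes b and c within an array. The Lamin A/C Kd arrays lie below the Control arrays at each probe, and Lamin B2 Kd replicate 3 lies below replicates 1 and 2.

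KRT15, a basal keratin of stratified epithelia, read 2.44, 2.36 and 2.56 in Control, 1.81, 2.10 and 1.90 in Lamin A/C Kd and 2.33, 2.23 and 1.498 in Lamin B2 Kd. Both knockdowns lay below Control on every array, by 0.51 (limma adjusted p = 0.17) and by 0.43 (limma adjusted p = 0.24), neither of which passed. Without Lamin B2 Kd replicate 3 the second difference was -0.17. KRT14, the basal partner of KRT5, differed at probe a by -0.01 and 0.06. KRT3, KRT4, KRT13, KRT16, KRT76 and KRT78, keratins of cornea, mucosa and skin, and KRT6L differed from Control by -0.15 to 0.30 in Lamin A/C Kd and by -0.02 to 0.49 in Lamin B2 Kd. KRT9 probe a differed by 0.16 and -0.29. Without Lamin B2 Kd replicate 3, Lamin B2 Kd differed from Control by 0.06 at KRT9 probe a and 0.03 at KRT6L. At KRT78 probes b and c it then differed by -0.29 and 0.15, and at KRT16 probe a by 0.64. None of them passed.

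KRT34 was the hair keratin with the largest difference. It read -0.76, -0.74 and -0.87 in Control, -1.27, -1.83 and -1.66 in Lamin A/C Kd and -0.69, -1.08 and -0.71 in Lamin B2 Kd, and it was above background on 8 of the 9 arrays. The Lamin A/C Kd arrays lay below all others. The probe was lower by 0.79 than Control (limma adjusted p = 0.022) and by 0.76 than Lamin B2 Kd (limma adjusted p = 0.017), which passed the adjusted p and not the 2-fold criterion. After normexp background correction the differences were -0.20 for both.

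The other 14 hair keratin probes tested, of KRT25, KRT31, KRT32, KRT33A, KRT38, KRT71, KRT81, KRT84, KRT85 and KRT86, differed from Control by -0.26 to 0.31 in Lamin A/C Kd and by -0.53 to 0.34 in Lamin B2 Kd. None had an unadjusted p under 0.05 in either. In Lamin B2 Kd much of the spread came with replicate 3. KRT31 probe c read 1.18, 0.95 and -0.32 on the 3 Lamin B2 Kd arrays, KRT85 read 1.29, 1.14 and 0.09, KRT86 read 1.22, 1.20 and 0.29, and KRT32 read 0.61, 0.68 and 1.75. The third value lay outside the range of the other 8 arrays in all 4. Without replicate 3 the differences of these 4 probes from Control were -0.07, -0.08, -0.01 and -0.19. KRT31 probe a then differed by -0.05, and KRT25 by 0.69, above the range given with all arrays. KRT31 probes b and c share 59 of their 60 bases, and replicate 3 read 1.62 at probe b, the highest of the 9 arrays, against the lowest at probe c.

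Few of the 40 keratin probes passed even where no fold was asked for. In Lamin A/C Kd against Control 7 of 40 had an unadjusted p under 0.05 (17.5%), against 24.1% of all probes: the 2 of KRT80, the 3 of KRT10, KRT15 and KRT34. In Lamin B2 Kd against Control it was 1 of 40 (2.5%) against 23.7%, and between the knockdowns 4 of 38 against 29.8%: KRT80 probe a, KRT10 probe a, KRT20 and KRT34. The difference of these shares was not tested. The median difference of the tested keratin probes was -0.03 in Lamin A/C Kd, where that of all probes was -0.05, and 0.08 in Lamin B2 Kd, where that of all probes was -0.14. The median over all probes in Lamin B2 Kd was 0.06 when arrays were shifted by the 75th percentile in place of the median, so differences of that size have no settled sign. Without Lamin B2 Kd replicate 3, 1 of 40 keratin probes was called in Lamin B2 Kd against Control (1.36% of all probes), and the differences ran from -0.29 to 1.12.

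**Figure D4:**
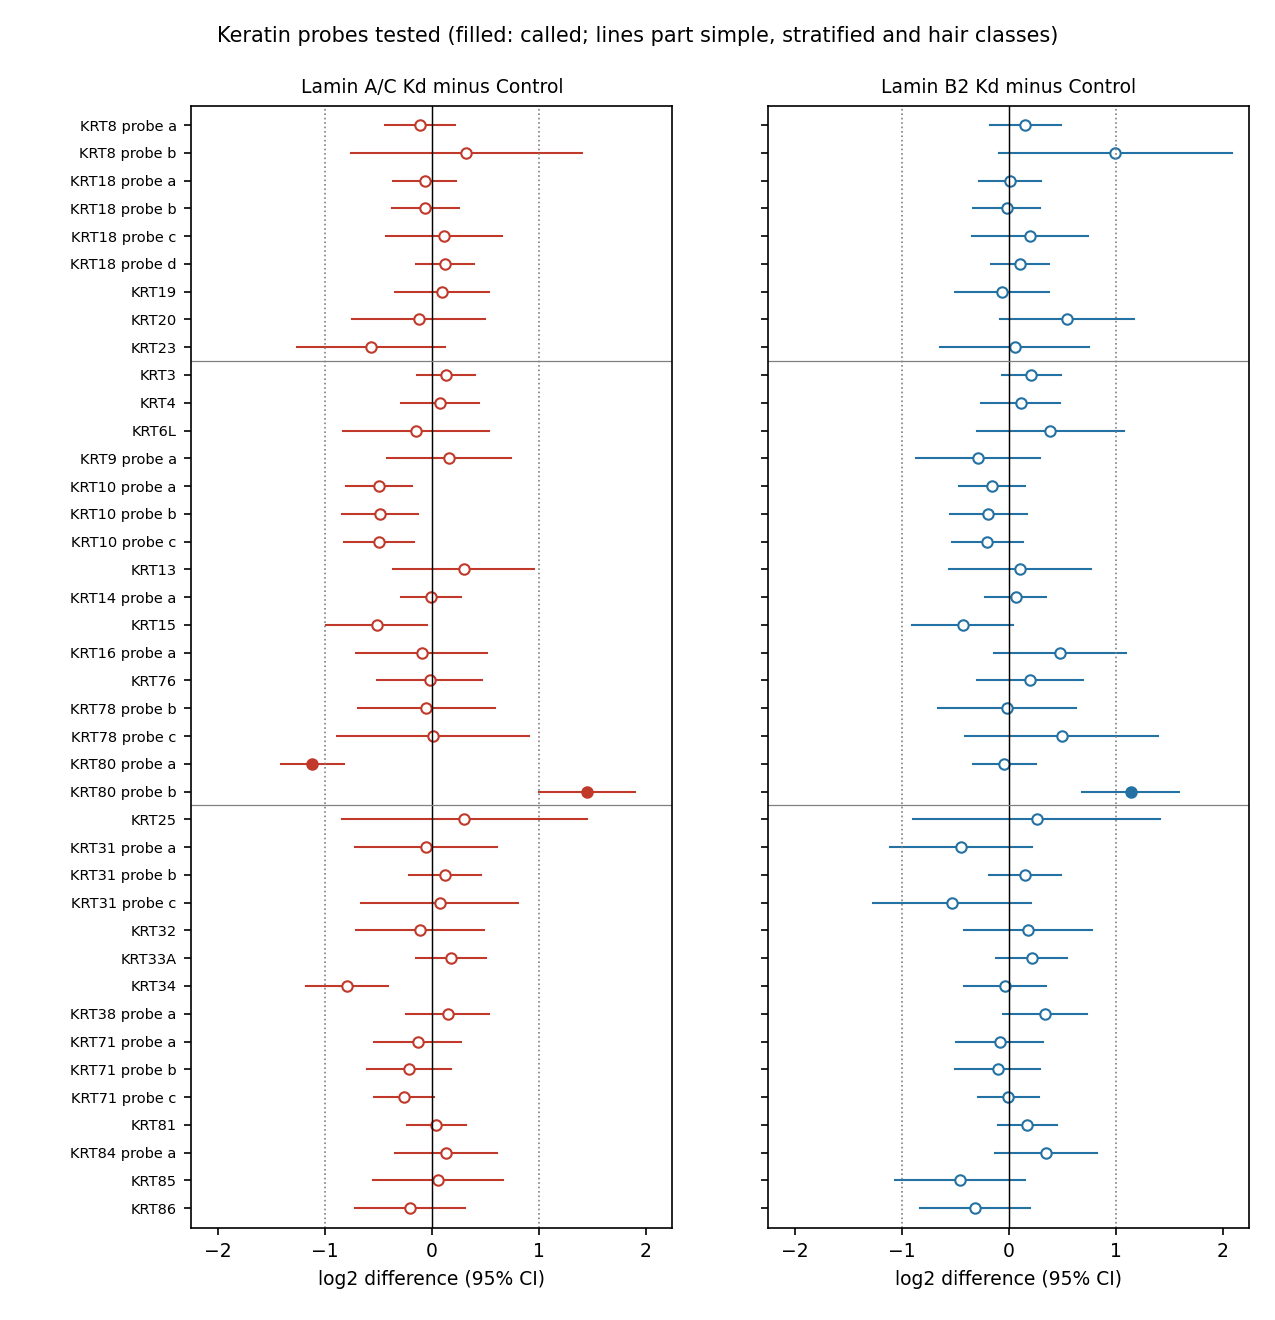
Log2 difference from Control (x axis, with 95% confidence intervals) of the 40 keratin probes tested (y axis), for each knockdown. Filled points were called and dotted lines mark a 2-fold difference. KRT80 probe a at -1.12 and probe b at 1.45 and 1.14 are the filled points.

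The array also holds 29 probes named for pseudogenes of KRT8, KRT18 and KRT19, which the rule leaves out and which can share sequence with the parent mRNA. Of these, 28 were tested and 0 were called in the comparisons. Of all probes, 2.32% were called in Lamin A/C Kd against Control, 1.98% in Lamin B2 Kd against Control and 4.07% between the knockdowns. At those shares the 28 pseudogene probes would give few calls. Their differences ran from -0.53 to 0.29 in Lamin A/C Kd and from -0.03 to 0.85 in Lamin B2 Kd, both against Control, and from -0.89 to -0.07 between the knockdowns, where all 28 were on the same side. Between the knockdowns KRT8 probes a and b differed by -0.26 and -0.67, KRT18 probes a, b and d by -0.08, -0.04 and 0.02, and KRT19 by 0.16. Without Lamin B2 Kd replicate 3 these were -0.41 and -0.61 for KRT8, -0.19, -0.17 and -0.04 for KRT18, and -0.08 for KRT19. The signs of KRT18 probe d and KRT19 thus depended on that array. The pseudogene differences are given only with it.

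Genes that work with keratins were read from 5 lists. The linker list held desmosomal and plakin proteins that anchor filaments. It also held other keratin linkers and binding proteins, namely CSNK1A1, FAM83H, ITGA6, ITGB4, PNN, SFN, TCHP and TRADD. Its median difference was -0.23 in Lamin A/C Kd against Control. There 4 of its 36 tested probes were called, all lower (11.1%, against 2.32% of all probes). They were 3 of the 4 probes of PKP2, a desmosomal plakophilin, and 1 of PLEC, plectin (PLEC1 in the files). A called PKP2 probe read 6.75, 6.75 and 6.87 in Control, 5.62, 5.51 and 5.64 in Lamin A/C Kd and 6.51, 6.44 and 6.23 in Lamin B2 Kd, with Lamin A/C Kd below all other arrays. PKP2 was lower in Lamin A/C Kd by 1.20, 1.13 and 1.08 at the called probes (limma adjusted p = 0.00097, 0.00088 and 0.0036) and by 0.40 at the fourth. With normexp the third was under 2-fold, at -0.88. At the 3 called probes it was lower than in Lamin B2 Kd too, by 0.80, 0.79 and 0.89 (limma adjusted p = 0.0026, 0.0020 and 0.0040), under 2-fold. The PLEC probe was lower by 1.01 (SE 0.35, limma adjusted p = 0.11), which did not pass the adjusted p and was under 2-fold with the 75th percentile shift, at -0.94, with quantile normalization, at -0.91, and without Lamin A/C Kd replicate 1 or 3 or Control replicate 3, at -0.84 to -0.98.

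In Lamin B2 Kd against Control 3 of 37 linker probes were called, all lower (8.11%, against 1.98%), with a median of -0.25. Both probes of EPPK1, epiplakin, a plakin that binds keratin bundles, were called. Its first probe read 2.12, 2.16 and 2.24 in Control, 2.35, 2.299 and 2.27 in Lamin A/C Kd and 0.90, 0.91 and 1.11 in Lamin B2 Kd, and the Lamin B2 Kd arrays lay below all others. EPPK1 was lower, with log2 differences of -1.20 and -1.002 (limma adjusted p = 0.0042 and 0.0074), and of -1.27 and -0.93 without Lamin B2 Kd replicate 3. The second probe was also under 2-fold with the 75th percentile shift, at -0.81, and both were with normexp, at -0.93 and -0.76. The third was PKP3, another plakophilin, which read 8.97, 8.999 and 9.09 in Control, 8.65, 8.88 and 8.48 in Lamin A/C Kd and 8.05, 8.39 and 7.08 in Lamin B2 Kd. It was lower by 1.18 (limma adjusted p = 0.055), and under 2-fold without replicate 3, at -0.80, and with the 75th percentile shift or quantile normalization, at -0.98 with both. DSP, desmoplakin, differed from Control by -0.14 and -0.05.

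Between the knockdowns 4 of 37 linker probes were called, 2 higher and 2 lower in Lamin A/C Kd (10.8%, against 4.07%). EPPK1 was higher in Lamin A/C Kd than in Lamin B2 Kd by 1.33 and 1.16 (limma adjusted p = 0.00028 and 0.00058), and under 2-fold with normexp, by 0.97 and 0.85. A probe of DST, dystonin, was lower by 1.02 (limma adjusted p = 0.015). It was under 2-fold with quantile normalization, at -0.99, with normexp, at -0.48, and without Lamin A/C Kd replicate 1 or 2 or Lamin B2 Kd replicate 1 or 3, at -0.91 to -0.998, whereas the other 3 DST probes tested were higher by 0.39 to 0.82. A PLEC probe, above background on 1 of 3 Lamin A/C Kd arrays, was lower by 1.09 (limma adjusted p = 0.0076), and under 2-fold with normexp, at -0.37, and without Lamin A/C Kd replicate 1, at -0.87.

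Of all probes, 2.32% were called in Lamin A/C Kd against Control, 1.98% in Lamin B2 Kd against Control and 4.07% between the knockdowns. In the other 4 lists 0 probes were called in the comparisons, and at those shares so few probes would give few calls. They were 13 tested probes of other cytoplasmic intermediate filament genes, 11 of cornified envelope and epidermal differentiation genes, 26 of transcription factors of keratin and epithelial genes and 30 of keratin modifiers and turnover in Lamin A/C Kd against Control. Their medians were -0.06, 0.03, 0.08 and -0.10 in Lamin A/C Kd, and -0.14, 0.14, 0.08 and -0.07 in Lamin B2 Kd. Some members passed the adjusted p below 2-fold. BFSP1, a lens filament protein, was lower by 0.84 in Lamin B2 Kd (limma adjusted p = 0.015), and JUNB, a subunit of the AP-1 factor, was lower by 0.68 at 1 of its 2 probes in Lamin A/C Kd (limma adjusted p = 0.020). HSPA8, a chaperone, differed from Control by -0.19 to 0.03 over its 4 probes. TGM1, a transglutaminase of the cornified envelope, was lower by 0.90 in Lamin A/C Kd (limma adjusted p = 0.015). KLF5, a factor of intestinal crypts, had probes at -0.46 and 0.45 in Lamin A/C Kd, neither of which passed.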

How the data were processed

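Each of the 9 arrays was 1 culture. Per the file headers the authors deposited Feature Extraction output, with intensities after background subtraction and spatial detrending (version 10.7.3.1; the submitters' notes name 10.5), and other columns that mark each spot as well above background, saturated or an outlier. No spot was saturated. A second deposited file, with normalized log2 values (50th percentile shift), leaves 20266 of its 50238 lines blank and joins several probes in 11504, and it served as an alternative. Its Lamin B2 Kd set numbers differ from those of the titles, and its columns were used by group.

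The log2 intensity minus the array median was averaged over a probe's spots, outliers left out. A probe was tested where at least 0.5 of its spots were well above background on all 3 arrays of 1 group compared. Depth here is signal over background, and 3 arrays per group limit the precision. limma 3.58.1 (R 4.3.3) was fitted over all 9 arrays. The methods used here name no test for the arrays, only their thresholds, which set the call here: 2-fold or more, with unadjusted p under 0.05. The code was tested on simulated data.

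All keratin probes are members. Values on each array are given for KRT8, KRT18, KRT80 and every called keratin probe, and differences for the other tested ones. KRT10, KRT15, KRT34 and the probes quoted for Lamin B2 Kd replicate 3 were given array values after their values were seen, as was the overlap of the KRT31 probes. The summed signal of the immune markers is not reported here. From the lists, called probes were named, with some of the 3 genes of highest mean signal in each list, picked among them after their values were seen. The members and lists were chosen with earlier results of these data known. The class of a keratin and 8 list genes under older names were set by accession or synonym through a GRCh38.p14 table. Alternatives were other normalizations, filters, call rules and fits, the slide as a random block, the replicate number as a block, and each array left out.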

Additional observations from a re-analysis of the deposited data

How the results depend on the processing

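The 2 called keratin probes of Lamin A/C Kd against Control stayed called without each array in turn (2 to 2) and under every alternative tried but 1. In the authors' table, whose row joins both KRT80 probes, 0 keratin rows were called in any of the 3 comparisons. There the KRT80 row read -0.62 in Lamin A/C Kd against Control, opposite to the 1.45 of probe b and weaker than probe a, 0.12 in Lamin B2 Kd against Control and -0.74 between the knockdowns. For Lamin B2 Kd against Control the keratin count was 0 with normexp, where KRT80 probe b read 0.95, and 2 with the 75th percentile shift and with quantile normalization, which added KRT8 probe b. It was 1 to 3 without each array in turn. Without Control replicate 3 the called probe was KRT8 probe b (1.41) and not KRT80 probe b (0.92), without Control replicate 2 both were called, and without Lamin B2 Kd replicate 1 KRT35 and KRT83 joined KRT80 probe b. Between the knockdowns the count was 3 at 1.5-fold, adding KRT20 and KRT34, and 4 with no filter, adding KRT5, KRT16 probe b and KRT83, which were not above background on all arrays of either group. It was 1 to 1 without each array, and without Lamin B2 Kd replicate 1 the 1 probe was KRT83, with KRT80 probe a at -0.9973.

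Calls over all probes were 756 to 856 in Lamin A/C Kd against Control, 460 to 1505 in Lamin B2 Kd against Control and 1214 to 2211 between the knockdowns without each array in turn. The highest of the last 2 came without Lamin B2 Kd replicate 2 and replicate 1. In the same order of comparisons, the counts were 3263, 2983 and 4824 at 1.5-fold, 324, 159 and 391 with normexp, and 402, 403 and 779 rows in the authors' table. With no filter they were 1532 in Lamin B2 Kd against Control and 2144 between the knockdowns. In Lamin B2 Kd against Control they were 319 with the adjusted p, 413 with detection on all 9 arrays, 426 with the slide as a random block and 386 with array weights. With the 75th percentile shift the share of calls that were higher went from 38.5 to 49.2%, from 39.8 to 77.3% and from 63.6 to 45.3%.

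The set numbers gave no sign of pairing. Correlations of deviations were -0.05 to 0.09 for same-numbered arrays of different groups and -0.11 to 0.11 for differently numbered ones. With 3 arrays per group this cannot show that the cultures were unpaired. With the replicate number as a block, 2, 1 and 1 keratin probes and 785, 682 and 1371 probes in all were called, and the block changed no keratin call. Of 42 single keratin differences, 38 were not called in the main fit. The 42 had 795 values under the alternatives. Of these values, 761 kept their call or moved by less than the SD between replicates, and 53 called in neither fit changed sign. Many of the values could not move, since another filter, or leaving out an array of the group not compared, leaves a difference as it was. The 761 thus do not measure robustness. Causes were not tested. Signal over background limits the 27 keratin genes without a tested probe, for which no change could be read.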
